A study of Mus musculus with 24 samples.

Results

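The comparison described here is that of eIF4E3 KO cells with ctrl cells in vehicle, at the level of mRNA. It rests on 6 RNA-seq libraries of the 24 samples of the series, 3 labelled ctrl vehicle and 3 labelled KO vehicle, which were chosen as the libraries of the count table that sets these conditions against each other. The cells are Neuro-2a (N2a), an established mouse neuroblastoma line. The ctrl cells, whose genotype the labels give as WT, carry the empty CRISPR/Cas9 vector. The KO cells were transfected with guides against the coding exons of Eif4e3. Both are pools selected with puromycin, so that each genotype is 1 pool and not a set of independent clones. All 6 cultures received the solvent DMSO for 2 h, the vehicle of the mTOR inhibitor Torin1, which the other RNA-seq libraries received at 250 nM. The replicates are cultures at different passages, and p-values therefore rest on the spread between cultures of 1 ctrl pool and 1 KO pool. Where passage is a term of the model, it is the spread left after that term, taken mainly from all transcripts. Passage stands here for the replicate number. That ctrl and KO libraries of the same number share a passage was assumed.

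eIF4E3 is a member of the eIF4E family, the proteins that bind the 5′ cap of an mRNA. The founding member, eIF4E1 (gene Eif4e), joins the scaffold eIF4G and the helicase eIF4A in the eIF4F complex, which brings the small ribosomal subunit to the mRNA. The 4E-binding proteins hold eIF4E1 away from eIF4G until mTOR phosphorylates them. In vehicle mTOR is active, and the comparison of KO with ctrl asks which mRNAs differ in level between the pools when growth conditions are normal.

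The libraries held 17940143 to 25976609 counts over the 10924 transcripts tested, and levels are given as CPM (counts scaled to the TMM-adjusted library size), with no correction for length. Libraries of the same genotype correlated across transcripts with r from 0.978 to 0.996 on the log2(CPM + 1) scale. The markers of sympathoadrenal cells were in place, with 10 of the 11 listed (Hand2, Gata2, Chga and others) in the table and a summed level of 2204 to 2527 CPM in ctrl and 2340 to 2810 CPM in KO. Chgb alone gave 1450 to 1690 CPM of that sum in ctrl and 1570 to 1950 CPM in KO. Of 6 listed neuronal markers 3 were in the table, while Dcx, Nefl and Nefm were not. Their summed level was 1628 to 2031 CPM in ctrl and 1481 to 1776 CPM in KO. The summed levels of the listed leukocyte, fibroblast, endothelial and glial markers stayed under 4 CPM in every library, and of these lists 1 of 5, 2 of 5, 1 of 3 and 1 of 5 genes were in the table. Ctrl replicate 3 and the libraries of passage 2 stood apart and touch the results below. In ctrl replicate 3, 102 transcripts were over 2-fold above the mean of the other ctrl libraries, against 3 to 9 in each of the other libraries, and a run of neighbours on chromosome 11 was among them. The ctrl and KO libraries of passage 2 deviated together from the mean of their genotype (r = 0.743 across transcripts, against 0.076 for passage 1 and 0.38 for passage 3). Between libraries of different passages r was -0.597 to 0.441, a range that holds the values of passages 1 and 3 but not that of passage 2.

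The mRNA of the targeted gene was lower in all KO libraries. Eif4e3 lies on the minus strand of chromosome 6 (chr6:99625135-99666771, GRCm38) and its 621 nt coding sequence (CDS, without the stop codon) is split over 7 coding exons. The count table also lists Gm20696 (chr6:99257484-99666797), which shares the first coding exon of 125 nt (99666628-99666752) and the second of 73 nt (99651719-99651791) with Eif4e3, then skips to 24 nt (99632389-99632412) of its sixth. The stretches below show the shared start and where the transcripts part. They are read from the RefSeq GRCm38.p6 genome on the minus strand. Capitals mark the start codon in the first, and in the junctions the bases that follow the second coding exon (99651719-99651733), from 99640696-99640710 in Eif4e3 and from 99632398-99632412 in Gm20696.
Eif4e3, coding start: ATGgcgctgcccccggctgccgcacccccc
Eif4e3, second coding exon into the third: gtacaaacagtgcagATATTCTGGAGTGTA
Gm20696, second coding exon into the next: gtacaaacagtgcagATGACGAGATCATCG

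Of the 30-mers in the CDS of Gm20696, 88.6% also occur in that of Eif4e3, and 28.9% of those of Eif4e3 occur in Gm20696, so counts of the pair cannot be fully told apart.

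Eif4e3 had 18.0, 11.8 and 17.9 CPM in ctrl replicates 1 to 3 (467, 244 and 371 counts) and 3.61, 2.87 and 4.95 CPM in KO (79, 51 and 123 counts). The genotypes did not overlap, and the lowest ctrl library was still over 2-fold above the highest KO library. The mean fell from 15.9 ± 3.54 to 3.81 ± 1.05 CPM (SD, n = 3 each), a log2 fold change of -2.05 ± 0.24 (SE) with an adjusted p of 0.0312 in edgeR's quasi-likelihood test without passage. With passage as a term it was -2.06 ± 0.18 (adjusted p = 1.38e-16, edgeR). Some Eif4e3 mRNA thus remained in every KO library. Such remaining mRNA says nothing of the protein, since small deletions that shift the reading frame can leave the mRNA in place. The paper measured the protein by Western blot and reports that eIF4E3 was undetectable in the KO cells.

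Gm20696 had 4.12, 2.76 and 4.82 CPM in ctrl and 0.411, 0.619 and 0.966 CPM in KO, again without overlap. It met the filter of over 1 CPM in all libraries of a genotype only through ctrl. Its log2 fold change was -2.52 ± 0.34 without passage, which missed the threshold (edgeR adjusted p = 0.0517), and -2.56 ± 0.30 with it (adjusted p = 5.98e-10). Among the other genes that start within 2 Mb of Eif4e3, none passed the threshold in either fit. Foxp1, a forkhead transcription factor, had 46.2 ± 7.95 CPM in ctrl and 51.5 ± 2.63 in KO, with an edgeR adjusted p of 0.403 with passage. Shq1, an assembly factor of box H/ACA particles, had a log2 fold change of -0.24 ± 0.12 (adjusted p = 0.190). Rybp and Ppp4r2 had log2 fold changes of 0.22 ± 0.12 and 0.17 ± 0.12.

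No other listed member of the eIF4E family or of its binding proteins passed the threshold, with or without passage. Eif4e itself had 140, 111 and 106 CPM in ctrl and 122, 124 and 128 CPM in KO, and the genotypes overlapped. Its log2 fold change with passage was 0.07 ± 0.10 (edgeR adjusted p = 0.716), and it took the opposite sign without replicate 3. Eif4e2, the cap-binding protein that represses translation together with Gigyf2, had -0.23 ± 0.10 (adjusted p = 0.143). Eif4ebp1, the first of the 4E-binding proteins, had 325 ± 29.4 CPM in ctrl and 288 ± 33.1 in KO, a log2 fold change of -0.17 ± 0.10 (adjusted p = 0.254). Of the 14 listed eIF4G, eIF4A and cap complex partners 1 rose with passage as a term, Paip1, a poly(A)-binding protein partner that stimulates initiation. It had 152, 116 and 115 CPM in ctrl against 152, 157 and 166 in KO (log2 fold change 0.32 ± 0.10, edgeR adjusted p = 0.0310), and in replicate 1 the genotypes were level.

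**Figure D1:**
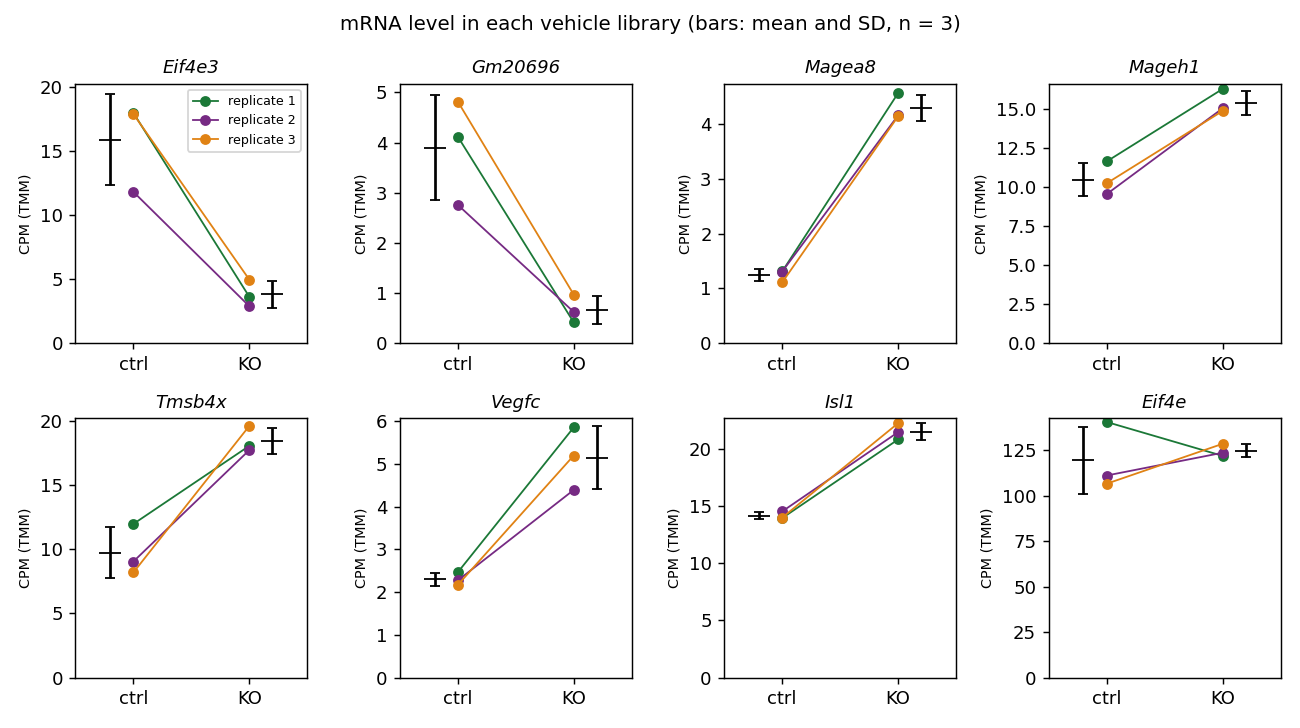
TMM-scaled CPM of 8 transcripts in each vehicle library, with a line joining the ctrl and KO library of a replicate number and, beside the points, the mean and SD of each genotype (n = 3). Eif4e3 and Gm20696 were lower and Magea8, Mageh1, Tmsb4x, Vegfc and Isl1 higher in all 3 KO libraries, while the genotypes overlapped for Eif4e.

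How many transcripts differed depended on whether passage was a term of the model. Without it 2 of 10924 transcripts passed an adjusted p of 0.05 (0.0183%), Eif4e3 and Magea8, and 646 had an unadjusted p under 0.05. With passage as a term 866 passed (7.93%), 596 of them higher in KO (5.46%) and 270 lower (2.47%). Their fold changes were small. The median absolute log2 fold change was 0.43, 173 exceeded 1.5-fold and 48 exceeded 2-fold, and in 278 of the 866 the 3 KO libraries did not overlap the 3 ctrl libraries, against 1178 of all tested (10.8%). The 866 rested on passage 2. Without its libraries 32 transcripts passed, against 1376 without passage 1 and 927 without passage 3. The fit with passage has 2 residual degrees of freedom and took its spread mainly from all transcripts (105 prior degrees of freedom, against 6.62 without passage). The split of directions depended on scaling. Higher calls were 68.8% of the total, 84.7% with library size alone (519 of 613) and 42.5% once counts were corrected for CDS length and GC content (339 of 798), and 382 of the 866 were called in the same direction after that correction.

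CDS length and GC content moved with the calls, and their part in them was not tested beyond that correction. Transcripts called higher had a median CDS of 2810 nt and 47.7% GC, those called lower 717 nt and 55.8% GC, and all those tested 1392 nt and 53.1% GC. In the longest quartile of CDSs (2217 to 26397 nt) 13.8% were called higher, and in the shortest quartile (75 to 873 nt) 0.697%. The median log2 ratio of KO to ctrl in the longest quartile was 0.18, 0.17 and 0.05 in passages 1 to 3, and in the shortest quartile -0.17, -0.08 and -0.02. With GC content the passages differed in sign. In the quartile richest in A and T the median ratio was -0.06 in passage 1, 0.24 in passage 2 and 0.22 in passage 3.

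**Figure D2:**
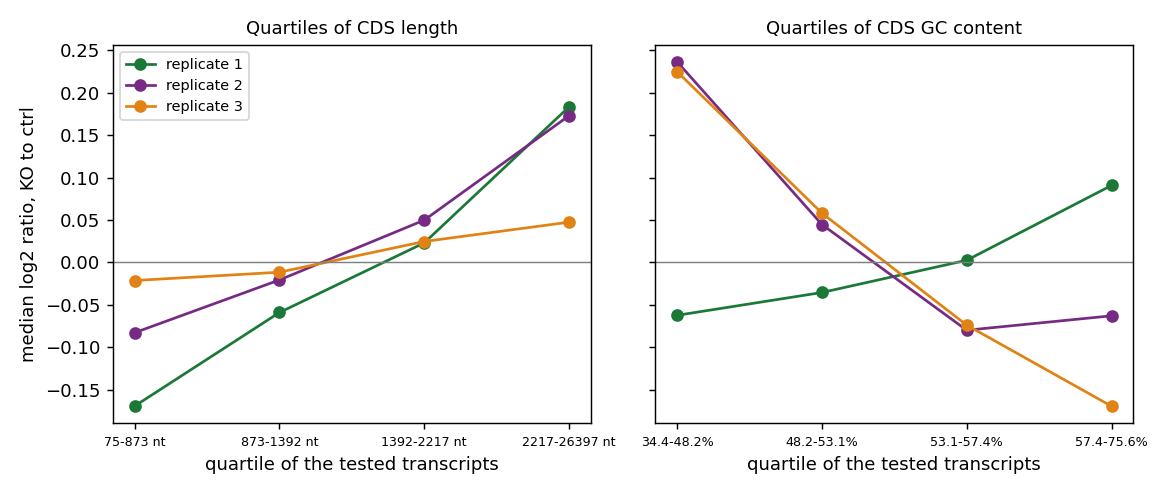
Median log2 ratio of KO to ctrl (y axis, no unit) in quartiles of CDS length in nt (left) and of CDS GC content in percent (right), with 1 line for each replicate number. The ratio rose with length in all passages, and in the quartile lowest in GC it was above 0 in passages 2 and 3 and below 0 in passage 1.

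Of the 866 calls, 30 were also called, in the same direction, when both libraries of passage 2 were left out. Of these, 7 lie in the run of neighbours on chromosome 11 described further on and rest on ctrl replicate 3. Of the other 23, 16 were higher and 7 lower in KO, 21 were also called with a robust estimate of the spread and 20 after the CDS correction. DESeq2 with passage gave an adjusted p to 7 of them, all under 0.05, and none to the rest. Among the rest, the unadjusted DESeq2 p was 0.0950 for Tmprss9, 0.273 for Reep6 and 0.117 for Myh2, and under 0.05 for the others. Those named next from this set that fall outside the rule for named genes (Rab37, Vamp8, Prdm8, Lrrc4c, Map1b, Ttc28, Ints6l, Sct, Reep6 and Myh2) were chosen after their values were seen.

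Magea8 had the clearest increase. It belongs to the MAGE family, whose type I members are germline genes that tumours often express. It had 1.31, 1.31 and 1.11 CPM in ctrl and 4.57, 4.16 and 4.14 in KO, so that the lowest KO library had over 3 times the highest ctrl library. The log2 fold change was 1.78 ± 0.21 without passage (edgeR adjusted p = 0.0312) and 1.79 ± 0.26 with it (adjusted p = 6.00e-07). The counts were low, at 23 to 34 per ctrl library and 74 to 103 per KO library. Of the 9 tested MAGE genes 5 were called higher with passage and none lower, and the list's median log2 fold change was 0.56, against 0.02 over all transcripts tested. The other 4 were Magea1 (0.415 ± 0.026 CPM in ctrl, 1.27 ± 0.133 in KO), Magea2 (0.758 ± 0.151 and 1.78 ± 0.508), Magea5 (2.79 ± 0.69 and 5.05 ± 0.938) and Mageh1 (10.5 ± 1.07 and 15.4 ± 0.773). In none of these 5 did the genotypes overlap. Magea1 and Magea2 met the filter of over 1 CPM in all libraries of a genotype only through KO. The filter thus favoured their direction, and both are part of the count and the median of the list.

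The Magea genes are near-identical copies on the X chromosome, and the first 30 coding bases show how little separates them. They are given from the minus strand of RefSeq GRCm38.p6, with capitals for each base that is not that of Magea8.
Magea8 (chrX:154987082-154987111): atggctgactcccataacatccaatactgc
Magea2 (chrX:155028557-155028586): atggctgactcccataacaCccaatactgc
Magea5 (chrX:155054365-155054394): atggctgaTtTccataacaCccaatactgc
Magea1 (chrX:155089699-155089728): atggctgactcccGtaacaCccaatactgc

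Over the whole CDS of 960 nt, 68.6% of the 30-mers of Magea8 also occur in at least 1 of the other 3 genes, as do 92.4% for Magea2, 74.2% for Magea5 and 88.4% for Magea1. Reads of one can have been counted for another, so the 4 values are not independent and the increase of a single copy is uncertain.

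Tmsb4x, which codes for the actin-sequestering peptide thymosin beta 4, had 12.0, 9.04 and 8.19 CPM in ctrl and 18.1, 17.7 and 19.6 in KO (log2 fold change 0.93 ± 0.15, edgeR adjusted p = 1.69e-05 with passage, 0.221 without). The genotypes did not overlap. Vegfc, a growth factor of lymphatic vessels, had 2.46, 2.27 and 2.17 CPM in ctrl and 5.85, 4.39 and 5.19 in KO (1.16 ± 0.23, adjusted p = 4.28e-04 with passage). Map1b, a microtubule-associated protein of neurons, had 927, 577 and 1644 CPM in ctrl and 1867, 1152 and 1977 in KO. It was higher in KO in each passage, but KO replicate 2 lay below ctrl replicate 3 (log2 fold change 0.76 ± 0.10, adjusted p = 1.32e-08). Ttc28 and Ints6l, a relative of an Integrator subunit, had log2 fold changes of 0.80 ± 0.14 and 0.79 ± 0.16.

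A pair of transcripts passed from a very low level. Prdm8, a transcriptional repressor of the PRDM family, had 0.154, 0.435 and 0.434 CPM in ctrl and 1.83, 1.29 and 1.65 in KO. Lrrc4c, a synaptic adhesion protein, had 0.231, 0.193 and 0.241 CPM in ctrl and 1.23, 1.01 and 1.01 in KO. Prdm8 and Lrrc4c met the filter of over 1 CPM in all libraries of a genotype only through KO, which favoured their direction. Reep6 and Myh2 each rested on a single library. Reep6 had 21.6 CPM in ctrl replicate 1 and 4.93 to 5.43 CPM in the others, and Myh2 11.9 CPM in KO replicate 3 and 1.42 to 2.37 CPM in the others.

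Among the decreases of the same set, Vamp8, a SNARE of endosomes and secretory vesicles, had 3.73, 6.67 and 3.23 CPM in ctrl and 1.37, 0.956 and 1.25 in KO (log2 fold change -1.84 ± 0.27, edgeR adjusted p = 6.09e-07 with passage). Rab37, a GTPase of regulated secretion, had 2.31, 1.11 and 1.69 CPM in ctrl and 0.0457, 0.394 and 0.121 in KO, the largest fold change of the set at -3.26 ± 0.46 (adjusted p = 2.87e-07). Vamp8 and Rab37 met the filter only through ctrl, which favoured their direction. Sct, the precursor of the hormone secretin, had 51.6, 61.6 and 59.7 CPM in ctrl and 37.0, 43.4 and 33.7 in KO (-0.60 ± 0.12, adjusted p = 3.70e-04).

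By the rule for named genes, which asked for calls with passage, at least 5 CPM in the higher genotype, the same sign in every passage and no overlap, the largest increases included, besides those given above, 2210418O10Rik (2.16 ± 0.175 CPM in ctrl, 5.40 ± 1.42 in KO), Dnajc6, the auxilin that uncoats clathrin vesicles (3.29 ± 0.977 and 6.28 ± 0.467), Bend7 (3.74 ± 0.568 and 6.86 ± 0.533), Fam122b (3.36 ± 0.947 and 5.93 ± 0.492) and Antxr2, an anthrax toxin receptor (3.87 ± 0.861 and 6.84 ± 1.16). Their edgeR adjusted p-values with passage were 1.18e-04 to 0.00763. In the Torin1 libraries 2210418O10Rik took the opposite sign (log2 fold change -0.31 with passage, edgeR adjusted p = 0.438). Dnajc6, Bend7, Fam122b and Antxr2 kept theirs. Tmprss9, a serine protease, came first with a log2 fold change of 2.32 ± 0.28 (adjusted p = 1.47e-09). It had 3.46, 0 and 1.74 CPM in ctrl and 8.22, 9.17 and 6.52 in KO, and the 0 in ctrl replicate 2 allows up to 0.145 CPM (3 counts). Tmprss9 met the filter only through KO. With a robust spread its adjusted p was 0.440.

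The decreases under the same rule held several enzymes. Aldh2, the mitochondrial aldehyde dehydrogenase, had 21.1 ± 3.32 CPM in ctrl and 12.2 ± 0.561 in KO (log2 fold change -0.78 ± 0.15). Upp1, a uridine phosphorylase, had a log2 fold change of -0.80 ± 0.16, and Ggct, which acts on gamma-glutamyl peptides, had 6.13 ± 0.778 CPM in ctrl and 3.64 ± 0.299 in KO. The others were the zinc transporter Slc39a4 (11.6 ± 1.77 and 6.19 ± 0.692), the retinoic acid receptor Rarg (14.7 ± 1.62 and 8.32 ± 1.14), Gh, growth hormone (23.4 ± 1.64 and 13.8 ± 0.468), and Fhdc1 (9.30 ± 0.694 and 5.37 ± 1.05). Their adjusted p-values with passage were 1.57e-04 to 0.0139. In the Torin1 libraries Ggct took the opposite sign (log2 fold change 0.13 with passage). Aldh2, Upp1, Slc39a4, Rarg, Gh and Fhdc1 kept theirs. The remaining decrease picked by the rule, Rdm1, rests on a single library and is described with its neighbours.

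The 10 most abundant transcripts called were all lower in KO and changed little. They included Rack1, a scaffold protein of the small ribosomal subunit, the ribosomal protein transcripts Rplp0, Rps3 and Rpl13a, the glycolytic enzymes Aldoa and Eno1, the chaperonin subunit Cct7, the ferritin light chain Ftl1, and Gm45713, whose counts differed from those of Rpl13a by under 100 in every library. Their log2 fold changes with passage lay between -0.40 and -0.28 (edgeR adjusted p 0.00257 to 0.0396). Rpl13a had 2353, 2913 and 2132 CPM in ctrl and 1769, 2067 and 1756 in KO, without overlap. None of the 10 passed without passage (adjusted p 0.683 for each).

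Genes were then read by 34 lists, whose counts of calls with passage are to be read against the 5.46% of all transcripts called higher and the 2.47% called lower. Cytosolic ribosomal protein transcripts, whose products form the 40S and 60S subunits, gave the most calls, with 25 of 82 lower with passage and none higher, and a median log2 fold change of -0.22. The medians of KO against ctrl in passages 1 to 3 were -0.35, -0.30 and -0.03, so that passage 3 hardly shared the shift. Oxidative phosphorylation had 15 of 79 lower and none higher (median -0.18), with Ndufb8 and Ndufb9 of complex I and Uqcrc1 of complex III among the calls, and the mitochondrial ribosome 9 of 78 lower and none higher (median -0.18). These lists hold short CDSs, with a median of 453, 423 and 582 nt. After correction for CDS length and GC content 6, 9 and 8 of their members were called lower and none higher, and with library size alone 13, 4 and 3. In the Torin1 libraries 9 ribosomal protein transcripts were called lower and 3 higher.

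Initiation factors outside eIF4 had 4 of 29 lower (Eif3f, Eif3i and Eif3k, subunits of the eIF3 complex, and Eif6, which keeps the large subunit from joining early) and none higher, with a median of -0.20. Eif3i had 647, 835 and 630 CPM in ctrl and 516, 606 and 516 in KO (log2 fold change -0.36 ± 0.09, edgeR adjusted p = 0.00885). After the CDS correction 10 of the 29 were called lower. Glycolysis and the pentose phosphate pathway had 3 of 26 lower (Aldoa, Eno1 and Tpi1) and none higher. Cholesterol and fatty acid synthesis was mixed, with 3 of 31 lower (Fdps, Pmvk and Ebp, enzymes of cholesterol synthesis) and 1 higher.

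Other lists had more calls higher than lower. Mesenchymal and extracellular matrix genes had 4 of 19 higher and 1 lower (median CDS 3159 nt). The higher ones were the fibronectin gene Fn1 (140, 168 and 223 CPM in ctrl and 232, 229 and 245 in KO, log2 fold change 0.44 ± 0.10, edgeR adjusted p = 0.00257), the integrins Itga6 and Itga1, and the transcription factor Zeb2, and Itga3 was lower. The mTOR list had 6 of 37 higher and 1 lower (median CDS 1443 nt). Rictor, the defining subunit of mTORC2, had 20.7, 12.3 and 33.6 CPM in ctrl and 36.8, 24.8 and 39.0 in KO (0.67 ± 0.13, adjusted p = 3.11e-04), and the genotypes overlapped. Irs2, a docking protein of insulin signalling, was higher too, and Tbc1d7, a subunit of the TSC complex that restrains mTORC1, was lower (31.9 ± 4.78 CPM in ctrl and 21.5 ± 2.06 in KO, -0.56 ± 0.13, adjusted p = 0.00199). After the CDS correction these lists had 2 higher and 1 lower, and 3 higher and 2 lower.

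Neuronal differentiation genes had 3 of 22 higher (the RNA-binding proteins Elavl2 and Elavl4, and Dpysl3) and 1 lower (Stmn4). Of 18 sympathoadrenal transcription factors Isl1, a LIM homeodomain factor, was called higher, with 13.9, 14.5 and 14.0 CPM in ctrl and 20.8, 21.4 and 22.2 in KO, a tight pattern without overlap (0.60 ± 0.14, adjusted p = 0.00358 with passage and 0.354 without). It was not called in the Torin1 libraries (adjusted p = 0.260). Catecholamine genes gave no call among 16. Th, the rate-limiting enzyme of dopamine synthesis, had 5.33 ± 0.822 CPM in ctrl and 5.45 ± 0.989 in KO, Ddc 6.90 ± 1.91 and 7.57 ± 0.337, and Dbh, which makes noradrenaline, 49.3 ± 1.02 and 39.1 ± 5.16 (adjusted p = 0.0563 with passage). The genotypes did not overlap for Dbh and overlapped for Th and Ddc.

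The other lists gave at most 3 calls each and are given as counts. Xiap, a caspase inhibitor and reported partner of eIF4E3, was the 1 call of 8 partners (5.01 ± 2.28 CPM in ctrl, 8.87 ± 2.81 in KO, higher). Imprinted genes had 2 of 8 higher (Peg3 and Peg10). DNA replication had 2 of 35 higher (Pola1 and Ccne2) and mitosis 2 of 32 higher (Mki67 and Cenpf), of which Mki67 and Cenpf took the opposite sign after the CDS correction. The counts of both lists are near the 5.46% over all transcripts. NRF2 and glutathione genes had 1 of 19 higher (Slc7a11, the cystine transporter, which also was the 1 call of 28 ATF4 genes) and 2 lower (Gpx1 and Gpx4). Lysosome and autophagy genes had 1 of 35 higher (Lamp2) and 1 lower (Map1lc3a). The interferon response had 2 of 20 lower (Ifi35, which is a neighbour in the chromosome 11 run, and Ifitm3), MHC class I 1 of 21 lower (Psmb10), the TCA cycle 1 of 26 lower (Idh3g), p53 targets 1 of 21 higher (Polk), and eIF4E-sensitive growth and survival genes 1 of 14 higher (Bmi1). Ero1l, an oxidase of disulphide formation, was the 1 call of 23 ER folding genes and of 16 hypoxia genes, higher in KO. In 7 lists no member of 89 tested was called with passage (catecholamine, aminoacyl-tRNA synthetase, heat shock and immediate early genes, and the markers of glia, of leukocytes, and of fibroblasts and endothelium). Without passage Eif4e3 and Magea8 were the only list members called.

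**Figure D3:**
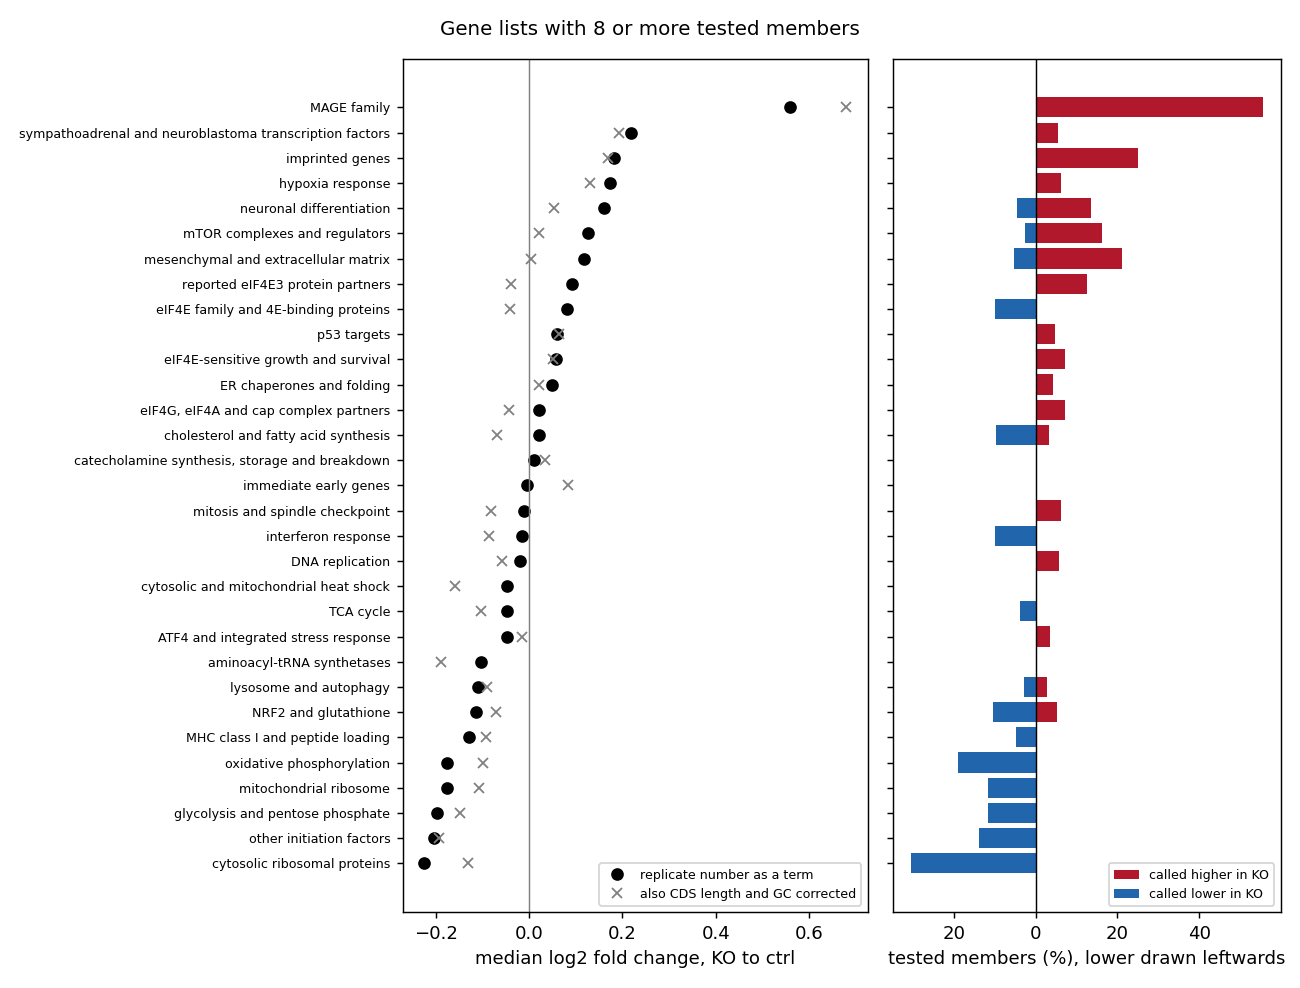
Lists with 8 or more tested members. Left, the median log2 fold change of KO to ctrl over the members, with passage as a term (points) and after correction for CDS length and GC content (crosses). Right, the percent of tested members called higher (to the right) or lower (to the left) with passage as a term. The MAGE family lies furthest to the right, with 5 of 9 called higher, and cytosolic ribosomal proteins furthest to the left, with 25 of 82 called lower. Of these 5, Magea1 and Magea2 met the filter only through KO.

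The calls were unevenly spread over the chromosomes, a pattern looked for after the values were seen and given as a description. On the X chromosome 76 of 356 transcripts tested were called higher with passage (21.3%) and 4 lower, on chromosome 13 48 of 386 were higher (12.4%) and 4 lower, and on chromosome 16 39 of 330 were higher (11.8%) and none lower. Over all chromosomes 5.46% were called higher. The median log2 fold change was 0.21 on X, 0.13 on 13 and 0.15 on 16. Chromosome 18 had a median of 0.12, near that of 13, with 19 of 296 called higher and 4 lower. On X the medians of the single passages were 0.10, 0.28 and 0.24. After correction for CDS length and GC content 57 X-linked transcripts were called higher and 11 lower, with a median of 0.15. With the same correction chromosome 13 had 35 higher and 12 lower (median 0.05). Chromosome 16 then had 22 higher and 2 lower (median 0.10), and chromosome 18 had 9 higher and 6 lower (median 0.03). Within each quartile of CDS length the X chromosome had the larger share of higher calls, 10.3% against 0.268% on the autosomes in the shortest quartile and 40.8% against 13.0% in the longest. The Torin1 libraries, which took no part in these calls, had 83 of 351 X-linked transcripts higher and 7 lower with passage, and a median of 0.14.

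The shift was not even along these chromosomes. On X the median was 0.49 in the window from 40 to 50 Mb (14 transcripts), 0.48 from 50 to 60 Mb (19 transcripts) and 0.55 from 90 to 100 Mb (14 transcripts), but 0.01 in the first 10 Mb (28 transcripts) and 0.03 from 70 to 80 Mb (55 transcripts). The window from 150 to 160 Mb, which holds the Magea genes, had 12 of 39 transcripts higher and none lower. On chromosome 13 the increase was in the distal windows and in the first 10 Mb, where 5 of 16 transcripts were called higher and none lower (median 0.20). All 39 transcripts from 100 to 110 Mb had a positive fold change (median 0.27) and 12 were called, while from 30 to 40 Mb the median was -0.15 over 28. Isl1, Itga1 and Paip1 lie at the distal end of chromosome 13, and Map1b in its window from 90 to 100 Mb (14 of 47 transcripts called higher). Of the genes named above, Tmsb4x, Magea1, Magea2, Magea5, Magea8, Mageh1, Fam122b, Xiap, Pola1, Lamp2, Ints6l, Idh3g and Ebp are X-linked.

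**Figure D4:**
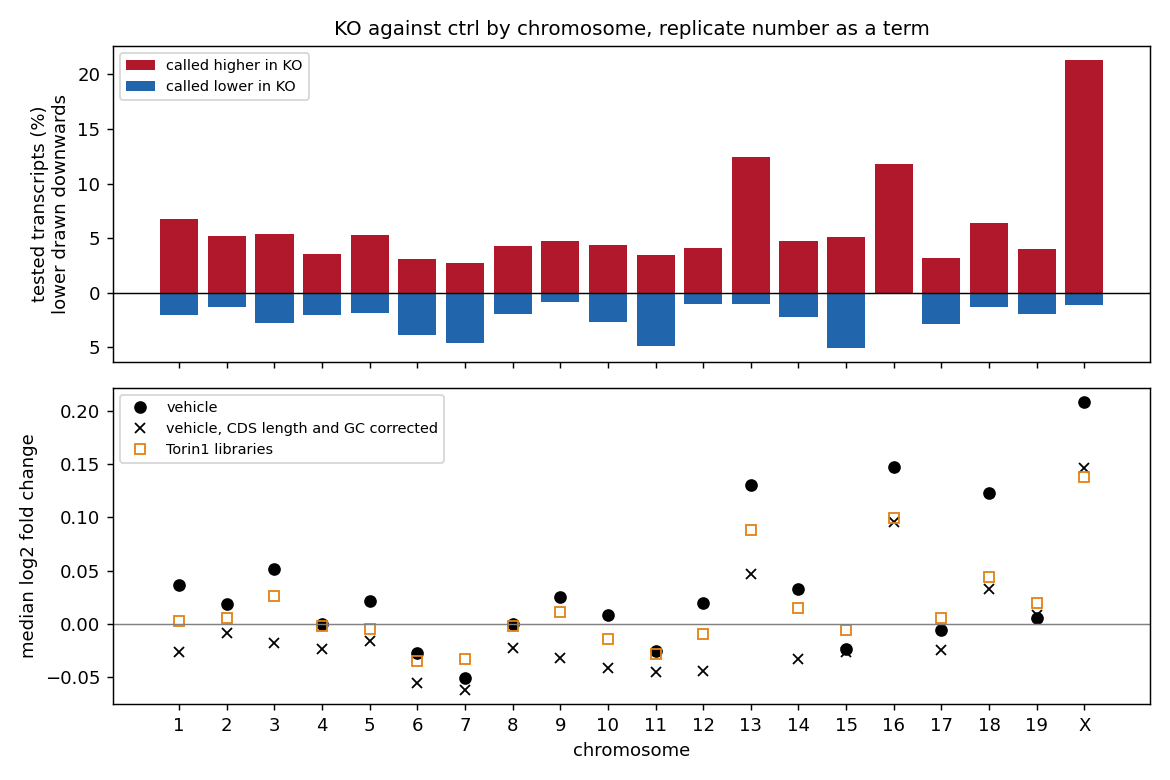
Top, percent of the tested transcripts of each chromosome called higher (upwards) or lower (downwards) in KO with passage as a term. Bottom, median log2 fold change of KO to ctrl per chromosome in vehicle (points), in vehicle after correction for CDS length and GC content (crosses) and in the Torin1 libraries (squares). The X chromosome stands highest in both panels, with 21.3% called higher and a median of 0.21 in vehicle.

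On chromosome 11 there was a run of 9 neighbouring transcripts (chr11:101448407-101767358, GRCm38) of which 7 were over 2-fold higher in ctrl replicate 3 than in the other ctrl libraries. Tmem106a, a macrophage-associated membrane protein, had 5.66, 6.77 and 306 CPM in ctrl replicates 1 to 3 and 4.27 to 6.07 in KO. Rdm1, a DNA repair factor, had 8.70, 12.9 and 309 CPM in ctrl and 6.96 to 8.32 in KO. The autophagy receptor Nbr1 had 105, 104 and 1033 CPM in ctrl, and the helicase Dhx8 135, 151 and 1145. Ifi35, Rnd2 and Arl4d were the others, and the remaining 2 of the 9 lay within the range of the other libraries. The run took 0.386% of the counts in ctrl replicate 3 and 0.0655% to 0.0749% in the other libraries. Under Torin1 ctrl replicate 3 did not stand apart. There Tmem106a had 5.47, 7.73 and 4.16 CPM in ctrl replicates 1 to 3, and Nbr1 186, 183 and 191. The cause was not tested. All 7 were called lower in KO with passage, for example Ifi35 with a log2 fold change of -1.31 ± 0.18 (edgeR adjusted p = 8.73e-08). None of the 7 was called with a robust spread or with DESeq2, and Nbr1 and Arl4d took the opposite sign without ctrl replicate 3. They make up 7 of the 270 decreases and of the 45 on chromosome 11.

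**Figure D5:**
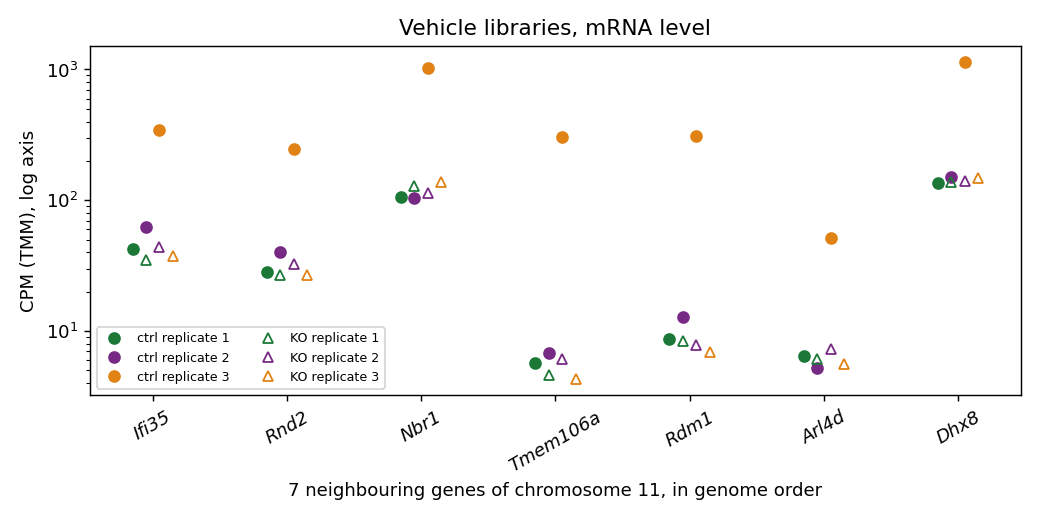
TMM-scaled CPM (log axis) of the 7 neighbouring transcripts of chromosome 11 that stood apart, in genome order, with filled circles for ctrl and open triangles for KO libraries, coloured by replicate number. For all 7, ctrl replicate 3 lies far above the other 5 libraries.

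The Torin1 RNA-seq libraries come from the same pools and carry the same replicate numbers but are separate libraries. With passage 1041 of 11007 transcripts passed there (9.46%), 537 higher and 504 lower in KO, and 216 without passage. Of the vehicle calls 858 were tested in them, and 829 (96.6%) had the same sign, against 75.0% of all transcripts tested in both. Of these, 369 were also called there in the same direction. The transcripts called higher in vehicle had a median log2 fold change of 0.17 in the Torin1 libraries, and those called lower -0.18. In vehicle, where they were chosen, the medians were 0.45 and -0.38. Eif4e3 had 14.3, 17.5 and 12.7 CPM in ctrl and 5.10, 4.57 and 4.77 in KO under Torin1, and Magea8 1.04, 1.25 and 0.535 against 3.24, 3.45 and 4.68. For neither did the genotypes overlap. No transcript of 11072 was called for a different effect of genotype in vehicle and under Torin1 by the interaction term with passage (0%, edgeR). At an unadjusted p under 0.05 there were 150 with passage and 108 without, and without passage the adjusted count was also 0.

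Ribosome footprints in vehicle, from 2 ctrl and 3 KO libraries, gave 3 calls. Of the 836 vehicle mRNA calls with footprints 603 (72.1%) had the same sign in them, against 60.0% of all transcripts. Footprints on Eif4e3 fell (20.2 and 16.4 CPM in ctrl, 2.56, 3.45 and 2.54 in KO, edgeR adjusted p = 0.00111) and those on Tmsb4x rose (22.4 and 13.4 CPM in ctrl, 58.8, 46.1 and 52.4 in KO, adjusted p = 0.0310). The third was Dbh, whose mRNA missed the threshold, with 99.4 and 83.5 CPM of footprints in ctrl and 43.8, 42.4 and 45.4 in KO (adjusted p = 0.0132).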

How the data were processed

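RNA was extracted with TRIzol and libraries were made with a stranded mRNA kit. HISAT2 on the mm10 genome came first in the authors' mapping, then Bowtie2 on a canonical transcript set, and they deposited raw counts per transcript. Tool versions and the use of strand in counting are not given in the sources used here. The tables also hold the authors' fold changes and p-values, which were not used. In the table of this pair 2 headers per genotype carry the same number, so libraries took their replicate numbers from the other RNA-seq tables, whose counts were the same.

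A transcript was kept if its CPM exceeded 1 in every library of the ctrl or of the KO group (10924 of 12408) and tested with edgeR 4.0.16 (R 4.3.3; TMM, quasi-likelihood F-test, Benjamini-Hochberg over all tested, threshold 0.05), first without passage and then with it as a term. Per the labels each replicate is a different passage. Libraries of ctrl and KO with the same replicate number were assumed to share a passage. An SE is the absolute log2 fold change divided by the square root of F. Deviations from the genotype mean correlated with r = 0.076, 0.743 and 0.38 between libraries of passages 1, 2 and 3, and with -0.597 to 0.441 between libraries of different passages. Alternatives were DESeq2 1.42.0, edgeR's exact test, RLE or no scaling, other filters, all 12 RNA-seq libraries and leaving out libraries. A robust spread and a correction for CDS length and GC content were added after seeing the data. Ctrl vehicle Ribo-seq replicate 2 was not analysed here. Floors cover counting error only. The scripts were tested on simulated counts with a common spread for all transcripts and base levels shared by replicate number. That setting could not test transcripts with a spread of their own. Positions, CDS length and GC content came from GENCODE M21 (12701 of 12747 transcripts matched by identifier). The 34 lists, the named genes and the comparison itself were chosen with earlier results of these data known. Named are the eIF4E family, Gm20696, calls without passage, with passage the 10 largest increases and decreases and the 10 most abundant calls, called list members (4 of a list with over 6), and Th, Ddc, Dbh and the neighbours of Eif4e3. Some transcripts that this rule names are not reported here.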

Additional observations from a re-analysis of the deposited data

How the results depend on the processing

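Without passage, the count of 2 calls was 866 with the replicate block, 42 by edgeR's exact test, 21 by DESeq2, 19 with all 12 RNA-seq libraries in one model, 4 without a filter, with filterByExpr or with a robust spread (added after seeing the data), and 0 with library size alone. RLE left it at 2. Leaving out 1 library gave 0 to 10. With passage, the count of 866 was 2 with no replicate block, 372 by DESeq2, and 31 with 12 libraries. RLE, no scaling, no filter, a robust spread and the CDS correction (the last 2 added after seeing the data) gave 613 to 1004. Leaving out 1 library gave 28 to 1391, with 34 and 28 calls without ctrl or KO replicate 2 and 1387 and 1391 without ctrl or KO replicate 1. Leaving out both libraries of a passage gave 1376, 32 and 927. For Torin1 the 216 calls were 1041 with the replicate block.

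Of 124 named transcripts, signs turned under alternatives in 31 of 3844 values. With the CDS correction the log2 fold change was -0.0365 for Gigyf2, -0.0579 for Eif4enif1, -0.0351 for Mki67 and -0.0864 for Cenpf. The turned values when libraries were left out were -0.0126, -0.0265 and -0.0269 for Eif4e, -0.0402, -0.0405, -0.0412 and -0.0578 for Ddc, -0.0127, -0.0403, -0.0409, -0.0414, -0.0921 and -0.0951 for Th, -0.0422 for Rybp, 0.1148, 0.1963, 0.1983 and 0.1988 for Arl4d, 0.2071, 0.2075 and 0.2804 for Nbr1, and -0.1508, -0.1522, -0.1526 and -0.2489 for Myh2. The cause was not tested. Depth limits low transcripts, since 3 counts correspond to 0.115 to 0.169 CPM.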
